A study of Homo sapiens with 13 samples.

Results

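Distal H3K27ac and H3K4me1 regions were compared in PANC1 cells, a long-used human line grown from a ductal carcinoma of the pancreas. Every library came from 1 stable line expressing BRG1, the remodelling ATPase encoded by SMARCA4. The samples are titled BRG oe, read here as overexpression of BRG1, and the labels do not say whether that line is a clone. The cells were mildly crosslinked and profiled by CUT&RUN, in which an antibody-tethered nuclease releases the DNA beside a histone mark, with 2 replicates for H3K27ac and 2 for H3K4me1. The labels do not state whether these replicates were separate cultures, so the spread between them may be technical. A region was kept where merged peaks of a mark held a peak from both replicates, on chromosomes 1 to 22 and X. It was called distal where it lay farther than 2.5 kb from either end of every RefSeq coding gene of GRCh38. This left 11728 distal H3K27ac regions and 20853 distal H3K4me1 regions, 32581 of the 47777 reproducible regions of the 2 marks and of the 66006 of all 6 targets in the series.

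H3K27ac is acetylation of lysine on the tail of histone H3 by p300 and CBP, and it marks promoters and enhancers in use. H3K4me1 is laid down mainly by the methyltransferases KMT2C and KMT2D and marks enhancers, both those in use and those merely primed. At active promoters H3K4me3 takes the place of H3K4me1, and the classical picture of an active enhancer is a nucleosome-depleted centre with both marks on the nucleosomes around it.

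The 2 sets differed in where they lay. Distal regions were 48.4% of all reproducible H3K27ac regions and 88.6% of all reproducible H3K4me1 regions. The libraries gave 52.1% and 50.8% distal peaks for H3K27ac, against 88.1% and 88.9% for H3K4me1. Regions were of similar size, with a median width of 490 bp for H3K27ac and 461 bp for H3K4me1, and they covered 7.23 Mb and 11.4 Mb. The median fold enrichment, the authors' own value for each peak, was 3.75 and 3.72 in the H3K27ac libraries and 3.63 and 3.55 in the H3K4me1 libraries. Most calls were weak, and H3K4me1 calls were the weaker: 49.5% and 50.7% of distal H3K27ac peaks reached a −log10 q of 1.3, against 22.1% and 19.3% of distal H3K4me1 peaks. The other replicate met 74.0% and 77.02% of distal H3K27ac peaks and 66.5% and 72.9% of distal H3K4me1 peaks. The peak lists hold no read counts, so their depth is unknown, and a shallow library and an absent mark cannot be told apart. At the edge of the distal rule, 317 H3K27ac and 359 H3K4me1 regions lay just inside it and 435 and 420 just outside. The line showed H3K4me3 with H3K27ac at an end of KRT8, KRT18, KRT19 and VIM, 4 of the 7 genes listed for it, with H3K27ac alone at KRT7, H3K4me3 alone at EPCAM and neither at CDH1. Both marks stood at 0 of 18 fibroblast and endothelial genes, 0 of 20 acinar and endocrine products and 2 of 20 haematopoietic genes, CD79A and CD68.

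RefSeq start windows (GRCh38.p14, 250 bases before to 50 bases after a transcript start) were read where they lay wholly inside distal regions. They describe only regions that hold an annotated start and are wide enough for its window, not the classes as a whole. There were 58 windows beside 4372 H3K27ac regions with H3K4me1, and 278 beside 2060 with H3K4me3 and no H3K4me1. For the 5296 with neither there were 52, and for the 16410 H3K4me1 regions without H3K27ac 78. Examples are the RefSeq starts of LOC100131496, SBF2 and LINC02065, printed with each CpG in capitals because CpG number differed between the windows of the classes. The LOC100131496 window (chr20:47318252-47318551, + strand, a long non-coding RNA inside ZMYND8) lies in the strongest H3K27ac region that met H3K4me1. The SBF2 window (chr11:10294170-10294469, − strand) lies in the strongest H3K27ac region without H3K4me1, which met H3K4me3. The LINC02065 window (chr5:66209397-66209696, − strand) lies in an H3K4me1 region without H3K27ac.
LOC100131496: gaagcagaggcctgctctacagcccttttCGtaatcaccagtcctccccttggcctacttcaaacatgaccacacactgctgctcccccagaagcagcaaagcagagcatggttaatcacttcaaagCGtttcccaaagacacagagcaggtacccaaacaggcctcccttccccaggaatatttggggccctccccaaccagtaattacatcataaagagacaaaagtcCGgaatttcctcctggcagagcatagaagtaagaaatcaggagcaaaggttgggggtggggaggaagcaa
SBF2: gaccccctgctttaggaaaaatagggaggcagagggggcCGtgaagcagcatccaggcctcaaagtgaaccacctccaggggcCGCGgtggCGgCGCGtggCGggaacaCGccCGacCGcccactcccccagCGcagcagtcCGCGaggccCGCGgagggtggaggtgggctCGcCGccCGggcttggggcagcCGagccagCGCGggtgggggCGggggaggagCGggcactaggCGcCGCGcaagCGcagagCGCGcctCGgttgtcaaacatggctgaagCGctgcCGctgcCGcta
LINC02065: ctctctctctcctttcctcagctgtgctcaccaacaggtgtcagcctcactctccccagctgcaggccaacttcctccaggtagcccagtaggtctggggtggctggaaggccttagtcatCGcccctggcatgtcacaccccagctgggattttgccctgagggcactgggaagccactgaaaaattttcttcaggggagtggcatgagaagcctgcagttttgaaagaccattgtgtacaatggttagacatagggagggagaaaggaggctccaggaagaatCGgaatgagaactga

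The SBF2 window held 33 CpG, the LOC100131496 window 3 and the LINC02065 window 2. Over these start windows the high number went with H3K4me3. The median was 6 CpG in 58 windows in H3K27ac regions with H3K4me1 and 26 in 278 windows with H3K4me3 and no H3K4me1. It was 6.5 in 52 windows with neither, and 7 in 78 windows in H3K4me1 regions without H3K27ac. All 34789 RefSeq windows had a median of 14 CpG. The median GC content of those classes, in the same order, was 55.8%, 68.3%, 56.7% and 56.8%, against 58.7% for all windows.

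A loose form of the AP-1 motif, TGANTCA with any base at N, was looked for because AP-1 is a common enhancer factor of carcinoma lines. This form reads the same on both strands, and matches with different bases at N were not separated. It was held by 20.7% of windows in H3K27ac regions with H3K4me1, by 5.04% of windows with H3K4me3 and no H3K4me1, by 26.9% of windows in H3K27ac regions with neither mark, and by 20.5% of windows in H3K4me1 regions without H3K27ac. Of all RefSeq windows 7.69% held it. A match is a description of the letters and not a binding site. Below are a window with it in an H3K27ac region that met H3K4me1 and also H3K4me3, at PLEKHG5 (chr1:6491618-6491917, − strand), and one in an H3K4me1 region without H3K27ac, at LRRC20 (chr10:70376743-70377042, − strand), with the motif in capitals.
PLEKHG5: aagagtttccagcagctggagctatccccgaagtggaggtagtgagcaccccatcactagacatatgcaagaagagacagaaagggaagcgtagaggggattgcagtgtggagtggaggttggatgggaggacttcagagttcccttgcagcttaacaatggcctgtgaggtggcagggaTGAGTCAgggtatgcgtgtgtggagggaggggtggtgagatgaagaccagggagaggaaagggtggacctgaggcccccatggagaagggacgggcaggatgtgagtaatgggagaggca
LRRC20: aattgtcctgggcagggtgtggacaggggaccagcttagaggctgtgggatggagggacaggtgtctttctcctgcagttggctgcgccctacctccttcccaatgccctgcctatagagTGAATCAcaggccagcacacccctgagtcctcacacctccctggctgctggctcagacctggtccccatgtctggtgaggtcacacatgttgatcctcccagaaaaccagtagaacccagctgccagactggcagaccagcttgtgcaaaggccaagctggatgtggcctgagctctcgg

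Distal H3K27ac met H3K4me1 in a minority of regions. Of the 11728 distal H3K27ac regions, 4372 overlapped a reproducible H3K4me1 region by at least 1 bp, or 37.3%, and the 4 pairs of single libraries gave 40.4% ± 2.44 (SD, n = 4 pairs that share 2 libraries per mark). In the other direction 4443 of the 20853 distal H3K4me1 regions met H3K27ac, or 21.3%, with 21.5% ± 0.381 in the library pairs. The share depended on the threshold: among the 5458 H3K27ac and 3559 H3K4me1 regions of peaks with −log10 q of at least 1.3 it was 14.8% for H3K27ac and 22.5% for H3K4me1. With 2 libraries per mark an exact permutation test cannot give a two-sided p below 0.333, so these shares are given with their spread and no test.

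Where the marks met, their summits were close, although overlap of regions of this width itself bounds the distance. The median distance from the H3K27ac summit to the nearest H3K4me1 summit was 72 bp in the 4372 regions that met, and 58.5% of these lay within 100 bp. The library pairs gave 77, 79, 80 and 81 bp. Summits of the same mark in the 2 replicates differed by a median of 56 bp for H3K27ac and 64 bp for H3K4me1, so the distance between marks was slightly above that between replicates. The 7356 H3K27ac regions that met no H3K4me1 were far from it, at a median of 12347.5 bp. Over all distal H3K27ac summits the median was 1969 bp, with 1109 bp ± 216 (SD, n = 4 library pairs), and 42.3% lay within 1000 bp. It was 1242.5 bp without H3K4me1 replicate 1 and 875 bp without H3K4me1 replicate 2, when every peak of the lone library counted as a region. H3K4me1 summits lay farther from H3K27ac, at a median of 13475 bp. The median distance from a distal H3K27ac summit to the next H3K27ac summit was 1583.5 bp, and between neighbouring H3K4me1 summits 3226 bp.

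Over all distal H3K27ac summits together, H3K4me1 coverage was highest on the summit and lower beside it. H3K4me1 covered 33.4% of distal H3K27ac summits and 13.4% of the points 500 bp to their sides, a difference of −20.02 percentage points. The library pairs gave 33.6% ± 2.51 at the summit and a difference of −20.4 ± 1.40 (SD, n = 4 pairs). Coverage was highest at the summit itself and reached 50% of that height by 350 bp. Only 405 summits, or 3.45%, had H3K4me1 on both sides within 2 kb and none on the summit, 14.6% had it on 1 side and 48.6% had none within 2 kb. The share with both sides was 6.30% ± 0.331 in the library pairs, 5.23% without H3K4me1 replicate 1 and 5.44% without H3K4me1 replicate 2, and 0.458% at −log10 q of at least 1.3. The converse profile had the same shape: H3K27ac covered 20.02% of distal H3K4me1 summits and 7.32% of the points 500 bp beside them. Coverage was nearly even toward and away from the nearest coding start, 10.6% and 9.58% at 1000 bp, whereas H3K4me3 covered 10.4% toward it and 6.56% away from it.

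**Figure D1:**
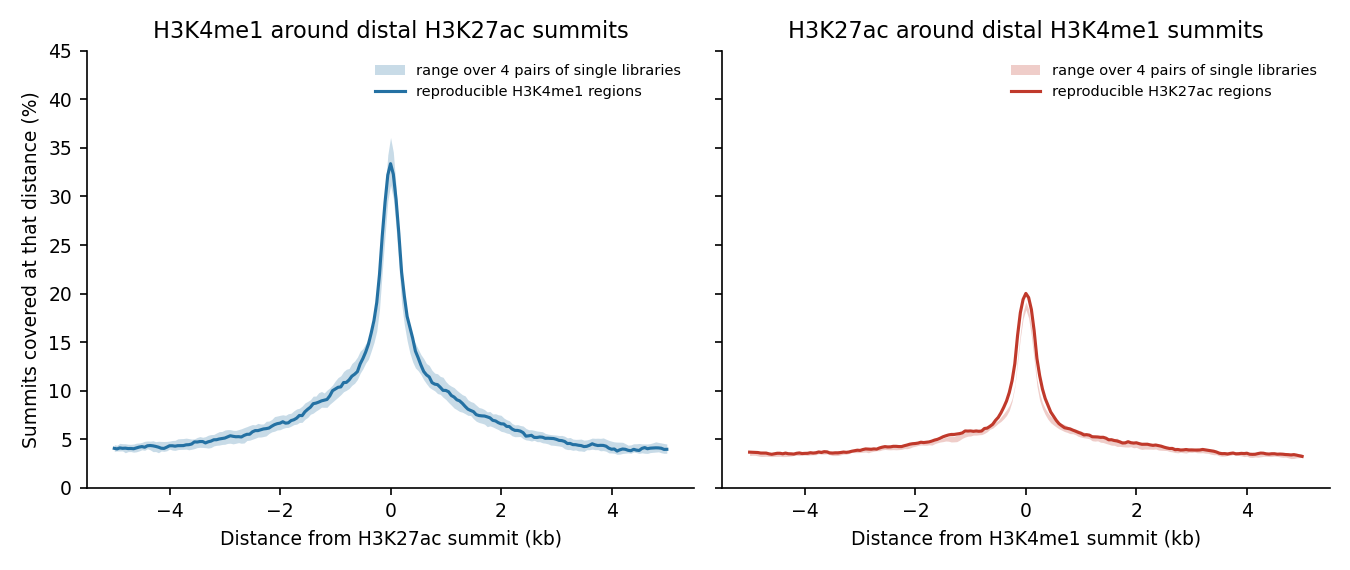
Share of distal summits (%) covered by the other mark against distance from the summit (kb), for H3K4me1 around 11728 H3K27ac summits and H3K27ac around 20853 H3K4me1 summits; lines are reproducible regions and bands the range over 4 pairs of single libraries. Both curves peak at the summit, at 33.4% and 20.02%, with no dip there.

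H3K4me3 divided the distal H3K27ac regions into 2 kinds. The 2133 regions that met H3K4me3, 18.2% of the total, almost never held H3K4me1: 73 of them met it, or 3.42%, with 4.38% ± 0.567 in the library pairs. Of the 9595 regions without H3K4me3, 4299 met H3K4me1, or 44.8%, with 47.7% ± 2.88. H3K4me1 covered 1.69% of the summits with H3K4me3 and 40.4% of those without. Coverage in the regions with H3K4me3 had only a small rise at the summit, against 0.891% at an offset of −300 bp and 1.27% at 200 bp. Farther out it was above the value on the summit, at 2.81% at −3000 bp and 2.77% at 2000 bp. The median distance to an H3K4me1 summit was 26544 bp with H3K4me3 and 955 bp without. Flanking H3K4me1 on both sides was also rare beside H3K4me3, at 15 summits or 0.703%, against 390 or 4.06% without. Regions with H3K4me3 were wider, 593 bp against 472 bp, and 20.4% of them held a RefSeq transcript start although they were distal to every coding gene end, against 1.99% of those without. The strongest H3K27ac region without H3K4me1 was of this kind, the internal SBF2 start printed above (chr11:10292973-10295143), with fold enrichments of 11.7 and 10.9. The next in rank lay in ATP2C1, a Golgi calcium pump gene, and beside RAB11FIP4, and both met H3K4me3.

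**Figure D2:**
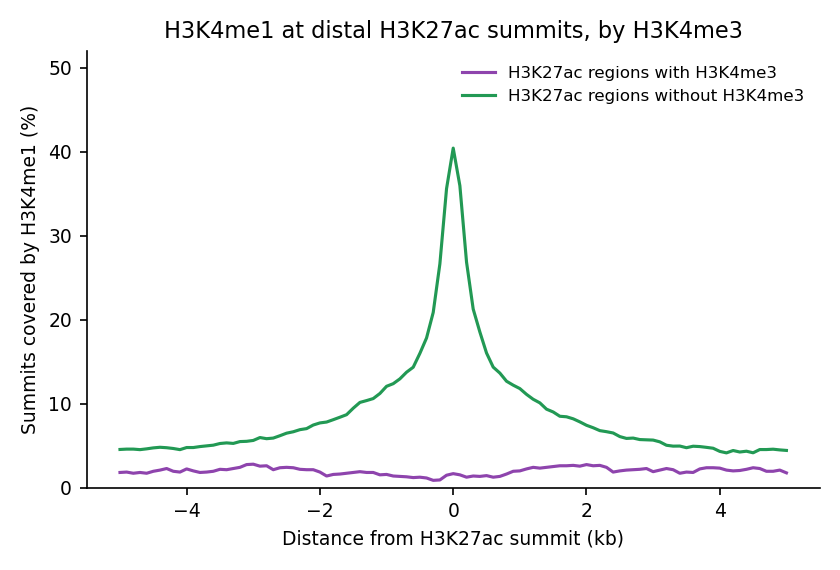
Share of distal H3K27ac summits (%) covered by reproducible H3K4me1 regions against distance from the summit (kb), for 2133 regions with H3K4me3 and 9595 without. The curve without H3K4me3 peaks at 40.4%. The curve with it stays low, with a small rise to 1.69% at the summit and a higher value of 2.77% at 2 kb.

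By class, 5296 distal H3K27ac regions, or 45.2%, met neither H3K4me1 nor H3K4me3, 4299 or 36.7% met H3K4me1 alone, 2060 or 17.6% H3K4me3 alone, and 73 or 0.622% both. Regions with neither mark were the narrowest, at 440 bp, against 527 bp with H3K4me1 alone and 592 bp with H3K4me3 alone. They were also the weakest, with median folds of 3.58 and 3.55 in the 2 libraries, against 3.898 and 3.83 with H3K4me1 alone and 4.01 and 4.01 with H3K4me3 alone. Reproducible BRG1 sites met 4.55% of regions with neither mark, 6.89% of those with H3K4me1 alone and 1.12% of those with H3K4me3 alone. Of H3K4me1 regions without H3K27ac 1.901% met BRG1. SMARCC1, a core BAF subunit, met 1.69% of H3K27ac regions with H3K4me1, 0.218% of those without and 0.0914% of H3K4me1 regions without H3K27ac. For NRF2, the antioxidant transcription factor, the shares were 1.01%, 0.299% and 0.134%. Inside coding genes lay 66.8% of H3K27ac regions with H3K4me1, 62.2% of those without and 64.6% of H3K4me1 regions without H3K27ac.

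The strongest regions with both marks lay in genes of several kinds. The highest mean rank among H3K27ac regions was in ZMYND8 (chr20:47316812-47320392), a reader of acetylated histones, with folds of 11.1 and 10.997 and its summit 147 bp from that of H3K4me1. CXXC5, a CpG-binding zinc finger gene, and TKT, the transketolase of the pentose phosphate pathway, came next, at offsets of 136 and −15 bp. Among H3K4me1 regions with H3K27ac the strongest was in VOPP1 (chr7:55554258-55556502), with folds of 11.2 and 12.5 and an offset of −34 bp between summits. EPDR1 and a region near ABHD2 followed, at 3 and −43 bp. H3K4me1 regions without H3K27ac were led by ZNF516, another VOPP1 region and WWC1, with mean folds of 9.42, 9.26 and 8.97, and their nearest H3K27ac summits lay 13864 and 17588 bp to one side for the first pair and, for WWC1, at an offset of −7603 bp.

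Stronger regions met the other mark more often for both marks, whereas crowding went with more overlap only for H3K4me1 regions. From the weakest to the strongest quintile of H3K27ac regions, the share that met H3K4me1 was 28.8%, 35.9%, 36.7%, 40.4% and 44.6%. For H3K4me1 regions meeting H3K27ac the quintiles gave 15.2%, 15.01%, 18.6%, 22.6% and 35.2%. Strong regions were also wider, with a median of 397 bp in the weakest and 779 bp in the strongest H3K27ac quintile, and the part of width in these shares was not tested. Isolated H3K27ac regions met H3K4me1 slightly more often than others, at 40.1% with no other distal H3K27ac summit within 25 kb. With 1, 2 to 3, 4 to 7 and 8 or more such summits the shares were 36.3%, 36.0%, 37.6% and 35.9%, without a trend. The library pairs gave 45.4% ± 1.04 with no neighbour, 39.8% ± 1.85 with 1 and 38.3% ± 4.02 with 8 or more. Of isolated H3K27ac regions 27.5% met H3K4me3, against 9.05% with 8 or more neighbours, and the part of H3K4me3 was not tested. H3K4me1 regions stood at 13.2% with no other distal H3K4me1 summit within 25 kb and 39.1% with 8 or more.

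The balance of marks also differed between chromosomes. Chromosome 19 had 332 distal H3K27ac and 182 distal H3K4me1 regions, chromosome 22 had 276 and 111, and chromosome 21 had 129 and 94. These 3 had more H3K27ac than H3K4me1 regions, whereas chromosome 3 had 695 and 1665 and X had 188 and 479. Chromosome 19 took 2.74% and 2.87% of the distal H3K27ac peaks in the libraries, against 1.09% and 0.812% of the distal H3K4me1 peaks. Chromosome 3 took 6.06% and 6.06% for H3K27ac, against 7.59% and 8.06% for H3K4me1. The libraries of the 2 marks did not overlap on either chromosome, but this also held on most others and does not set these apart. On chromosome 1 the shares were 9.90% and 10.02% for H3K27ac against 10.8% and 10.9% for H3K4me1. On chromosome 20 they overlapped, at 3.01% and 2.86% against 3.06% and 2.79%. On chromosome 19 17.2% of H3K27ac regions met H3K4me1, and on chromosome 5 46.9%.

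Genes were compared by the distal regions in their span plus 50 kb on either side. Of 19974 coding genes, 4739 had regions of both marks, 1880 had H3K27ac without H3K4me1, 4113 had H3K4me1 without H3K27ac and 9242 had neither. Across the 10732 genes with a region, Spearman's rank correlation between the numbers of the 2 marks was 0.155. It is a description over genes with overlapping windows that are not replicates. Leaving out the 9242 genes with neither mark lowers this value by construction, so it does not measure how far the marks go together over all genes. For a test, distal peaks per gene were counted in each library, scaled by the library's distal peaks and compared on the log2(peaks + 0.5) scale with limma over 5540 genes with at least 8 peaks. A positive log2 difference means relatively more H3K27ac. At a Benjamini-Hochberg adjusted p under 0.05, 1569 genes had more H3K27ac, or 28.3% of those tested, and 1200 had more H3K4me1, or 21.7%. At an unadjusted p under 0.05 there were 3210 in all.

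The scaling bears on this balance, since the libraries held 16926 and 16394 distal H3K27ac peaks and 32852 and 30432 distal H3K4me1 peaks. With no scaling the median log2 difference was −0.80 in place of 0.12, a shift of −0.92, and 439 genes had more H3K27ac and 1783 more H3K4me1, so the H3K27ac share of calls was 19.8% in place of 56.7%. Directions below are therefore relative to all genes. The number with more H3K4me1 was 551 without H3K4me1 replicate 1, 497 without H3K4me1 replicate 2, and 1903 and 1871 without H3K27ac replicate 1 or 2. The direction of the balance turned on single libraries too: the H3K27ac share of calls was 42.9% and 43.8% without H3K27ac replicate 1 or 2. Short genes leaned to H3K27ac and long genes to H3K4me1: the median log2 difference was 0.57, 0.44, 0.17, −0.13 and −0.46 from the shortest to the longest quintile of tested genes.

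**Figure D3:**
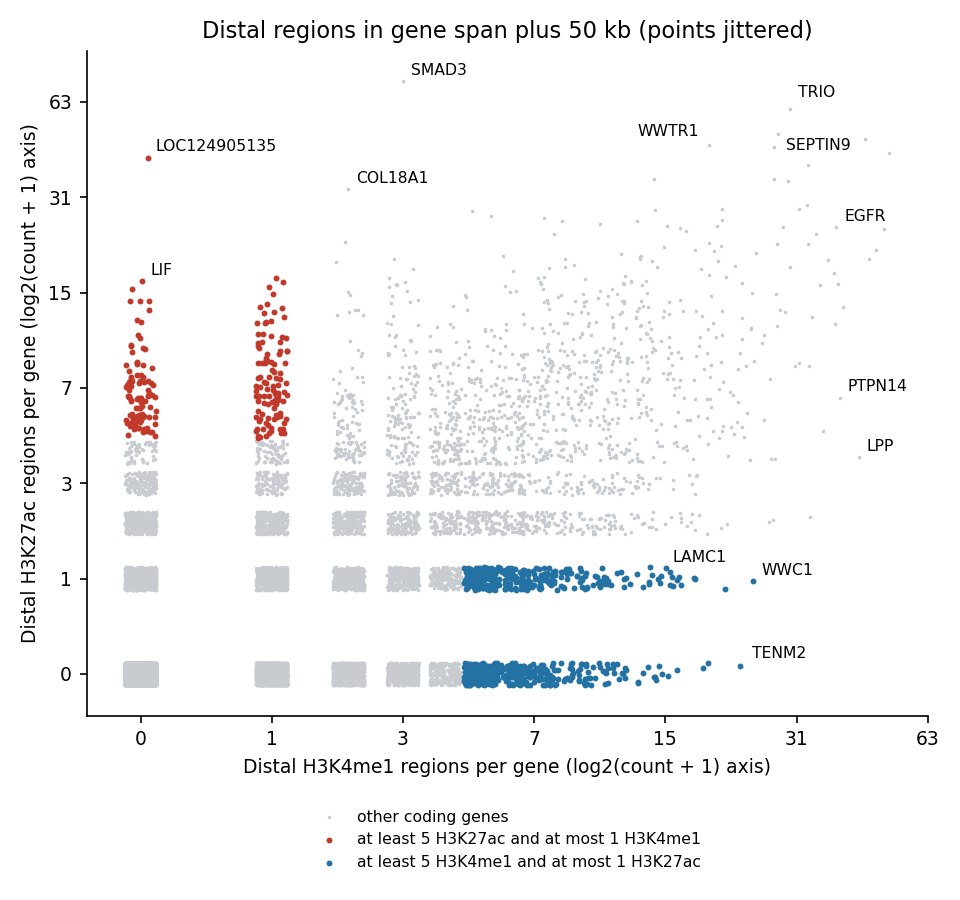
Number of distal H3K27ac regions against number of distal H3K4me1 regions in the span plus 50 kb of each of 19974 coding genes, both on log2(count + 1) axes with jitter. Red points are the 207 genes with at least 5 H3K27ac and at most 1 H3K4me1 region, blue points the 679 of the opposite kind, and SMAD3 (72 and 3) and LPP (4 and 41) stand far from the diagonal without being in either set.

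SMAD3, the transcription factor that carries TGF-beta signals to the nucleus, had the largest excess of H3K27ac, with 72 H3K27ac regions and 3 H3K4me1 regions. Its window held 92 and 94 distal H3K27ac peaks and 16 and 5 distal H3K4me1 peaks. SMAD3 and the genes that follow were chosen for large differences among called genes, which largely fixes that their libraries stand apart. Both H3K27ac libraries were far above both H3K4me1 libraries (log2 difference 4.22 ± 0.50 SE, limma adjusted p = 0.00389; 3.29 with adjusted p = 0.0562 with no scaling). The H3K27ac regions of SMAD3 covered 62.0 kb between chr15:67023921-67188020, 3 of them met H3K4me1 and 2 met H3K4me3.

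LOC124905135, a coding gene that RefSeq names only by its locus, with a window overlapping that of WNT7B on chromosome 22, had 41 H3K27ac regions and no H3K4me1 region. Its libraries held 52 and 48 H3K27ac peaks and 1 and 0 H3K4me1 peaks (limma adjusted p = 0.00131). Here 15 of the 41 H3K27ac regions met H3K4me3. COL18A1, which encodes a basement membrane collagen, had 32 and 2 regions, with 40 and 37 H3K27ac peaks against 8 and 3 H3K4me1 peaks (log2 difference 3.76 ± 0.41, limma adjusted p = 0.00311; 0.0504 with no scaling). Of its H3K27ac regions 1 met H3K4me1 and 1 met H3K4me3.

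WWTR1, which encodes the YAP partner TAZ, and TRIO, a guanine nucleotide exchange factor, were rich in both marks with an excess of H3K27ac. WWTR1 had 60 and 62 H3K27ac peaks, against 34 and 24 H3K4me1 peaks (log2 difference 2.01 ± 0.16, limma adjusted p = 0.00143; 0.0524 with no scaling). TRIO had 75 and 74 H3K27ac peaks, against 49 and 46 H3K4me1 peaks (1.57 ± 0.09, adjusted p = 0.00121). Unlike at SMAD3, many of the regions coincided: 16 of 47 H3K27ac regions at WWTR1 and 20 of 58 at TRIO met H3K4me1. The other genes of the 10 largest were DLGAP1, a synaptic scaffold gene, MYPN, a sarcomere protein gene, WDR25, SEPTIN9, a cytoskeletal GTPase gene, and MBNL2, a splicing regulator. They had 22 to 50 H3K27ac regions and 2 to 30 H3K4me1 regions. DLGAP1 had 29 and 5 regions with no overlap between the marks. Its H3K27ac regions lay within chr18:3446528-3666016, at the end of its window that overlaps the window of TGIF1, a gene named below. SEPTIN9 had 50 and 30 regions with 21 overlaps.

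LPP, a LIM protein gene of focal adhesions, had the largest excess of H3K4me1, with 4 H3K27ac and 41 H3K4me1 regions. Its window held 8 and 7 distal H3K27ac peaks and 51 and 55 distal H3K4me1 peaks. The libraries of the 2 marks were far apart (log2 difference −1.82 ± 0.14, limma adjusted p = 0.00131). Of its 41 H3K4me1 regions 3 met H3K27ac, and none of its regions met H3K4me3. The H3K4me1 regions covered 22.1 kb between chr3:188158834-188931884, whereas the 4 H3K27ac regions were grouped within chr3:188260740-188267311.

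**Figure D4:**
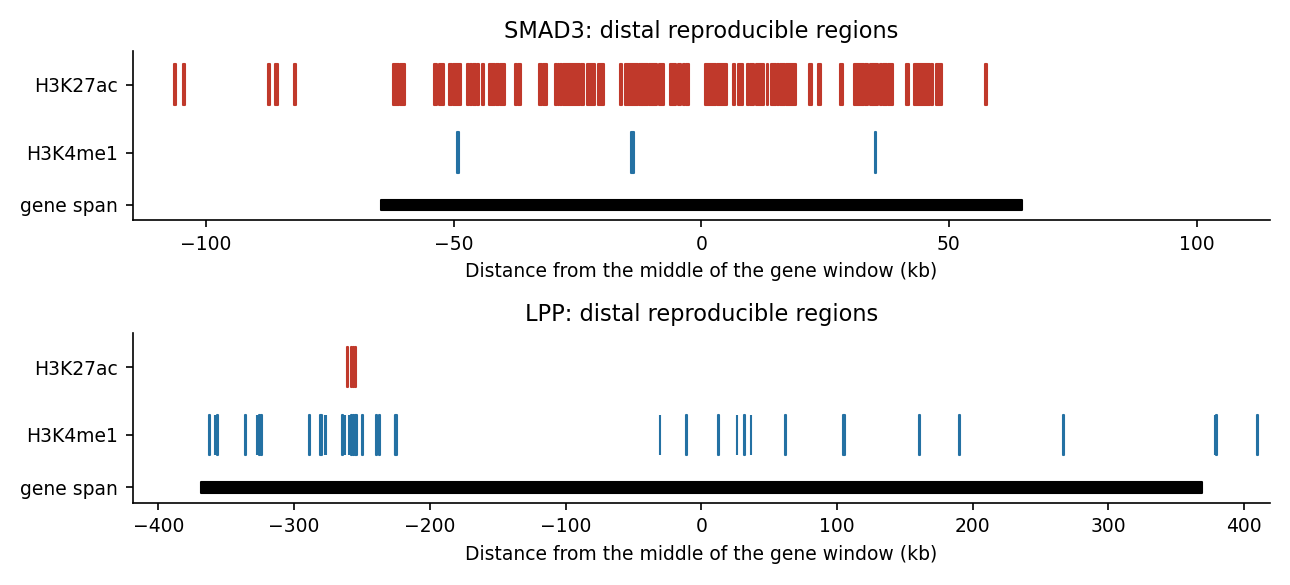
Reproducible distal H3K27ac (red, above) and H3K4me1 regions (blue, below) in the windows of SMAD3 and LPP, drawn to scale in kb from the middle of the window, with the gene span in black. SMAD3 shows 72 H3K27ac and 3 H3K4me1 regions, and LPP shows 4 and 41.

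IQCJ-SCHIP1, a readthrough gene on chromosome 3, had 5 and 6 H3K27ac peaks and 42 and 45 H3K4me1 peaks (−1.95 ± 0.17, limma adjusted p = 0.00173). PTPN14, a tyrosine phosphatase gene that restrains YAP, had 12 and 10 H3K27ac peaks and 46 and 46 H3K4me1 peaks (−1.10 ± 0.13, adjusted p = 0.00415; not called with peaks within 1 kb joined, −0.38 with adjusted p = 0.114). In both genes every H3K4me1 library was above every H3K27ac library, as the choice of genes largely fixes. KSR1, a scaffold of the RAS to MAPK cascade, had 5 and 33 regions, and SPRED2, an inhibitor of that cascade, had 14 and 37. SPRED2 was the least secure of these, with adjusted p = 0.0206 for a log2 difference of −0.53. It was not called without H3K27ac replicate 2 (adjusted p = 0.053), without H3K4me1 replicate 1 (0.0581) or with peaks within 1 kb joined (0.776). NAV2, PDE10A, PXDN, a collagen-crosslinking peroxidase gene, CTBP2, a corepressor gene, and SH3PXD2A, an invadopodium scaffold gene, had 2 to 11 H3K27ac regions and 27 to 37 H3K4me1 regions. SH3PXD2A (adjusted p = 0.0351) also lost its call under several settings, among them without H3K4me1 replicate 1 (0.0641) and without H3K4me1 replicate 2 (0.136). The H3K27ac regions that these H3K4me1-rich genes had often met H3K4me1, from 5 of 5 at KSR1 and 7 of 9 at SH3PXD2A down to 6 of 14 at SPRED2 and 3 of 7 at PTPN14.

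**Figure D5:**
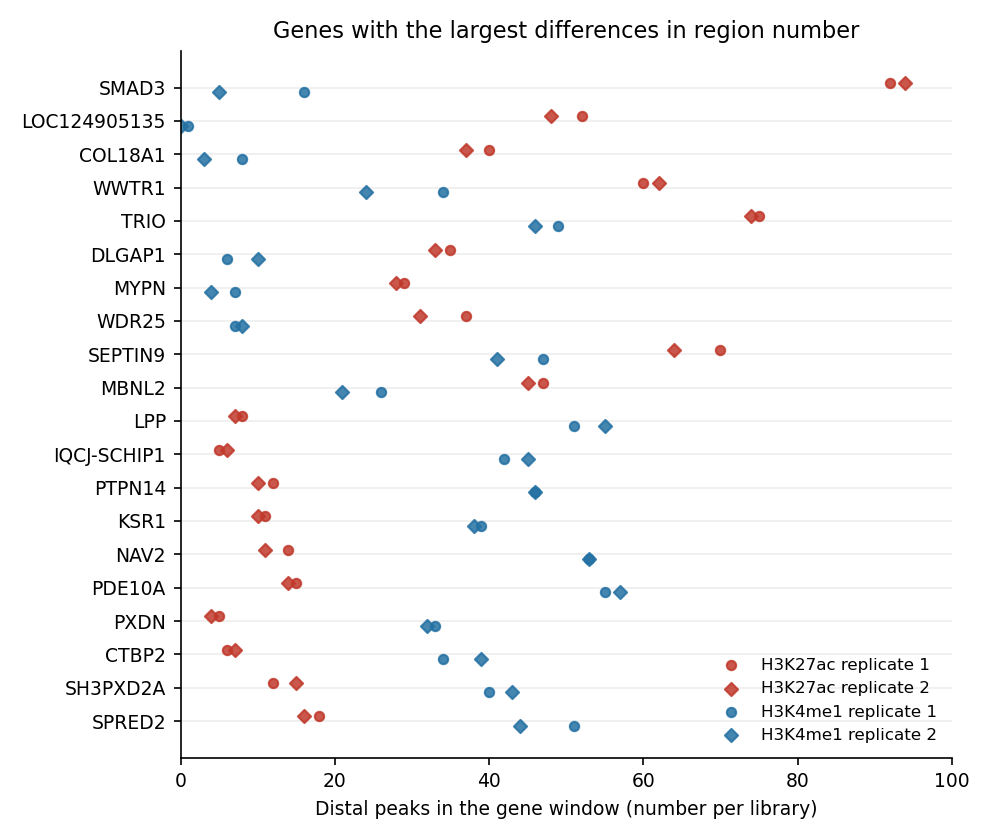
Distal peaks per library in the windows of the 10 genes with the largest excess of H3K27ac regions (SMAD3 to MBNL2) and of H3K4me1 regions (LPP to SPRED2), as numbers per library, with circles for replicate 1 and diamonds for replicate 2. The genes were chosen for large differences among called genes, which largely fixes that the marks do not overlap in them. Values run from 92 and 94 H3K27ac against 16 and 5 H3K4me1 peaks at SMAD3 to 18 and 16 against 51 and 44 at SPRED2.

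Genes rich in one mark and poor in the other were taken as those with at least 5 regions of it and at most 1 of the other. On the H3K27ac side there were 207, or 1.04% of coding genes, in 106 separate stretches of overlapping windows. On the H3K4me1 side there were 679, or 3.4%, in 487 stretches. These counts chose the genes, so they are not tested. In the limma fit 204 of the 207 and 526 of the 679 passed in the same direction, which the choice itself largely fixes. The counts depended on the libraries: the H3K27ac side had 368 and 376 genes without H3K27ac replicate 1 or 2, and 135 and 97 without H3K4me1 replicate 1 or 2. The H3K4me1 side had 1246 and 1474 without H3K4me1 replicate 1 or 2, and 32 at −log10 q of at least 1.3, where the H3K27ac side had 241. Of the first kind 49 genes had exactly 5 H3K27ac regions and 129 more had 4, and of the second 282 had exactly 5 H3K4me1 regions and 415 more had 4.

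The 2 kinds of gene also differed in other measures. H3K27ac-rich genes were shorter, with a median of 30.2 kb, against 79.2 kb for H3K4me1-rich genes and 24.2 kb for all. A distal H3K4me3 region lay in the window of 68.1% of H3K27ac-rich genes, 18.0% of H3K4me1-rich genes and 22.4% of all genes. A distal BRG1 site lay in that of 11.6%, 26.1% and 7.79%, and windows of the long H3K4me1-rich genes are larger. At an end of a gene itself, H3K27ac was present for 70.5%, 54.9% and 46.7%, and H3K4me3 for 75.4%, 68.9% and 59.7%. Their spread over chromosomes restates the balance of regions given above: chromosome 19 held 15.5% of H3K27ac-rich and 0.442% of H3K4me1-rich genes, against 7.26% of all coding genes. Chromosome 12 held 12.6% and 2.21%, against 5.13% of all, and chromosome 17 held 12.1% and 2.06%, against 5.85%. Chromosome 3 held 0.483% and 9.28%, against 5.34%.

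Several of the richest H3K27ac loci were compact. Chosen after their values were seen, LIF, a cytokine gene, had 15 H3K27ac regions and no H3K4me1 region, with 19 and 19 H3K27ac peaks against 1 and 1 H3K4me1 peaks. HOXB6, in the HOXB cluster of developmental regulators, had 16 and 1, with 22 and 22 H3K27ac peaks against 2 and 1 H3K4me1 peaks, and the windows of HOXB3, HOXB4 and HOXB5 each had 15 and 0. Those HOXB windows share most of their regions. By window length, BNC2, a zinc finger gene, CUBN, the endocytic receptor cubilin, CACNA1A, a neuronal calcium channel gene, MRTFA, a cofactor of SRF, ABR and GTF2F2 led the H3K27ac-rich kind, with 6 to 8 H3K27ac and 0 or 1 H3K4me1 regions. MRTFA had 9 and 8 H3K27ac peaks and 1 and 1 H3K4me1 peaks (log2 difference 3.51 ± 0.25).

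TENM2, a teneurin cell adhesion gene, was the clearest of the H3K4me1-rich kind, with no H3K27ac region and 22 H3K4me1 regions. Its libraries held 0 and 0 H3K27ac peaks and 27 and 31 H3K4me1 peaks. No fold is given for genes with 0 peaks in both libraries of a mark, since it would rest on the pseudocount. The limma p-values printed below for such genes rest on it too and add little to the counts. WWC1, a Hippo pathway gene whose window overlaps that of TENM2 and which was chosen after its values were seen, had 1 and 1 H3K27ac peaks and 29 and 29 H3K4me1 peaks. Other long H3K4me1-rich genes were AGBL4 with 0 and 10 regions and EYS with 0 and 5. PDE4D and ANKS1B each had 1 and 5 regions and did not pass the test (adjusted p = 0.0538 and 0.11), though both passed without H3K27ac replicate 1 (0.00352 and 0.0366).

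The H3K27ac side of the gene lists rests on the scaling. With no scaling the number of members with more H3K27ac was 0 in place of 8 for epithelial genes, 2 in place of 10 for integrin and laminin genes, 0 in place of 6 for NRF2 pathway genes, 2 in place of 6 for TGF-beta genes, 2 in place of 5 for YAP and TEAD genes, 1 in place of 4 each for AP-1, mesenchymal and pancreatic lineage genes, and 0 in place of 3 for BAF and PBAF subunits. Those still called were FOSL1, CD44, FOXA2, AJUBA, VGLL4, LTBP3, TGIF1, ITGA2 and ITGB1 in these lists, with others such as ERRFI1, NRG1, SETD1B and DLGAP1 in the remaining lists. On the H3K4me1 side the number with no scaling was 7 in place of 3 for YAP and TEAD genes, 4 in place of 2 for mesenchymal genes, 6 in place of 5 for TGF-beta genes and 4 in place of 4 for integrin and laminin genes. LAMB3, ERBB4 and GCLC lost their H3K4me1 calls. Among the other named genes, BNC2, CACNA1A, ABR and GTF2F2 also lost their calls with no scaling. The medians given below for each list are on the scaled log2 difference and shift by −0.92 without it, so positive medians under that size change sign.

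Among the pathway lists, TGF-beta genes were called on both sides, in shares near those of all tested genes. Of 17 tested members of 29, 6 had more H3K27ac and 5 more H3K4me1, beside 28.3% and 21.7% of all tested genes, and the list's median log2 difference was 0.24, against 0.12 for all. On the H3K27ac side were SMAD3, SMAD7, the feedback inhibitor, TGIF1, a corepressor of SMADs, LTBP2 and LTBP3, latent TGF-beta binding proteins, and INHBA, an activin subunit. LTBP2 had 9 and 9 H3K27ac peaks against 10 and 9 H3K4me1 peaks and was called only relative to the longer H3K4me1 lists. TGIF1 had 13 and 11 H3K27ac peaks against 2 and 2 H3K4me1 peaks (3.24 ± 0.21, limma adjusted p = 0.00121), and LTBP3 had 11 and 11 against 2 and 2 (3.13 ± 0.20, adjusted p = 0.00121). On the H3K4me1 side were the receptors TGFBR1 and ACVR1, the ubiquitin ligase SMURF1, PMEPA1 and LTBP1, a further binding protein. LTBP1 had 4 and 4 H3K27ac peaks against 20 and 23 H3K4me1 peaks (−1.36 ± 0.18, adjusted p = 0.00526), so 2 genes of the same family stood on opposite sides. TGFB2, the ligand, had 7 and 8 H3K27ac peaks against 21 and 27 H3K4me1 peaks and just missed the threshold (−0.68 ± 0.21, adjusted p = 0.0563). It passed without H3K27ac replicate 1 (0.04), without H3K27ac replicate 2 (0.00389) and without H3K4me1 replicate 1 (0.0402).

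Hippo pathway genes were also called on both sides, in shares near those of all tested genes (28.3% and 21.7%). Of 14 tested YAP and TEAD genes of 25, 5 had more H3K27ac (WWTR1, NF2, AJUBA, VGLL4 and CCN1) and 3 more H3K4me1 (YAP1, TEAD3 and AMOTL1), with a median of −0.27. YAP1, the paralogue of TAZ, had 2 and 1 H3K27ac peaks against 11 and 10 H3K4me1 peaks (−1.58 ± 0.32, limma adjusted p = 0.0168), opposite to WWTR1. AMOTL1, an angiomotin that binds YAP, had 2 and 1 against 28 and 24 (−2.85 ± 0.29, adjusted p = 0.00264). TEAD3, a DNA-binding partner of YAP, had 0 and 0 against 8 and 5, the same counts as RPL10A, whose window overlaps its own. CCN1, a secreted YAP target, had 12 and 11 H3K27ac peaks against 15 and 15 H3K4me1 peaks, and with no scaling it was called on the H3K4me1 side. NF2, the upstream tumour suppressor, was not called with no scaling (adjusted p = 0.235) or without H3K4me1 replicate 2 (0.0657).

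Integrin and laminin genes, the list with the most tested members, had 14 calls of 21 tested of 29, beside 28.3% and 21.7% of all tested genes called on the H3K27ac and the H3K4me1 side. On the H3K27ac side were 10, among them ITGB1, the common integrin beta chain, with 8 and 9 H3K27ac peaks against 2 and 1 H3K4me1 peaks (3.14 ± 0.32, limma adjusted p = 0.00268). ITGA2, a collagen receptor chain, had 25 and 20 against 13 and 12 (1.74 ± 0.15, adjusted p = 0.00166). On the H3K4me1 side there were 4, among them ITGAV and the laminin genes LAMB3 and LAMC1. LAMC1 had 1 and 1 H3K27ac peaks against 21 and 24 H3K4me1 peaks (−3.01 ± 0.22, adjusted p = 0.00121). LAMB1, in contrast, had 10 and 8 H3K27ac peaks against 6 and 3 H3K4me1 peaks (1.91 ± 0.33, adjusted p = 0.0108). The list's median was 0.80.

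Relative to all genes, epithelial genes leaned to H3K27ac, with a median of 1.62. On that side were 8 of 14 tested of 24 and on the other 1, beside 28.3% and 21.7% of all tested genes. With no scaling 0 epithelial genes had more H3K27ac and 2 more H3K4me1. The 8 called with scaling were the keratins KRT7, KRT8, KRT18 and KRT19, the transcription factor GRHL2, the tight junction gene CLDN4, RAB25 and SPINT2. The windows of KRT8 and KRT18 overlap, so they share regions. KRT18 had 9 and 9 H3K27ac peaks against 6 and 3 H3K4me1 peaks (1.92 ± 0.32, limma adjusted p = 0.00962), and GRHL2 had 17 and 17 against 4 and 8 (2.43 ± 0.37, adjusted p = 0.00803). ELF3, an epithelial ETS factor, was the exception, with 0 and 0 H3K27ac peaks against 6 and 4 H3K4me1 peaks (adjusted p = 0.0018). Of 12 tested mesenchymal genes of 24, 4 had more H3K27ac (among them LOXL2, ITGA5 and CD44) and 2 more H3K4me1 (CDH2, the N-cadherin, and SPARC), with a median of −0.04. ITGA5 had 5 and 5 H3K27ac peaks against 6 and 5 H3K4me1 peaks and was called only relative to the longer H3K4me1 lists. CD44, a hyaluronan receptor, had 31 and 36 H3K27ac peaks against 19 and 15 H3K4me1 peaks (1.89 ± 0.16, adjusted p = 0.00152). SPARC, a matrix glycoprotein, had 5 and 4 against 26 and 23 (−1.40 ± 0.16, adjusted p = 0.0037). Without H3K4me1 replicate 2, LOXL2 was not called (adjusted p = 0.0526).

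AP-1 genes encode the factors whose motif was looked for above in a loose form. They had 4 of 7 tested of 14 on the H3K27ac side (FOSB, FOSL1, JUN and JUNB) and none on the other, with a median of 1.02. The shares over all tested genes were 28.3% and 21.7%. FOSL1 had 11 and 8 H3K27ac peaks against 0 and 0 H3K4me1 peaks (limma adjusted p = 0.00121). JUN and FOSB had like numbers of both marks, 7 and 8 against 7 and 8 for JUN, and were called only relative to the longer H3K4me1 lists. Among pancreatic lineage factors 7 of 33 were tested, of which 4 had more H3K27ac (PDX1, GATA4, FOXA2 and RBPJL) and 2 more H3K4me1 (ONECUT1 and NR5A2), with a median of 1.03. GATA4 had 13 and 12 against 2 and 0 (4.46 ± 0.78, adjusted p = 0.0113), and NR5A2 had 0 and 0 against 5 and 5 (adjusted p = 0.00121). RBPJL had like numbers of both marks, 7 and 7 against 6 and 7, and was not called with no scaling.

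EGF receptor family genes had 2 calls each way of 9 tested of 15, beside 28.3% and 21.7% of all tested genes, with a median of 0.36. On the H3K27ac side were ERRFI1, a feedback inhibitor of the receptor, with 12 and 7 H3K27ac peaks against 0 and 0 H3K4me1 peaks, and the ligand gene NRG1 with 4 and 5 against 0 and 0 (limma adjusted p = 0.00121 for each). ERBB4 and LRIG1 were on the H3K4me1 side. EGFR itself was rich in both, with 33 and 32 H3K27ac peaks against 47 and 51 H3K4me1 peaks, and was not called (0.34 ± 0.12, adjusted p = 0.0745). With no scaling EGFR turned to H3K4me1 (−0.58, adjusted p = 0.0167), and without H3K4me1 replicate 2 it passed on the H3K27ac side (0.0412). Of its 23 H3K27ac regions 14 met H3K4me1.

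NRF2 pathway genes had 6 of 12 tested of 29 on the H3K27ac side (TXNRD1, TKT, ABCC1, ABCC2, FTH1 and SQSTM1) and GCLC on the other. Their median was 0.73, and the shares called over all tested genes were 28.3% and 21.7%. TXNRD1, the thioredoxin reductase, had 14 and 12 H3K27ac peaks against 6 and 3 H3K4me1 peaks (2.42 ± 0.31, limma adjusted p = 0.00494). NFE2L2, which encodes NRF2, had 10 and 14 against 15 and 17 and was not called (0.51 ± 0.23, adjusted p = 0.133), though it passed without H3K27ac replicate 1 (0.00591). Of 10 tested BAF and PBAF subunit genes of 27, ARID1A, BCL7A and BCL7C had more H3K27ac and ARID1B more H3K4me1, with a median of 0.96. ARID1A and ARID1B, alternative subunits of the same complex, differed in direction relative to all genes. ARID1A had 3 and 3 against 3 and 2 (1.17 ± 0.29, limma adjusted p = 0.0307) and ARID1B 7 and 6 against 24 and 20 (−0.76 ± 0.15, adjusted p = 0.0165). ARID1A had like numbers of both marks and was called only relative to the longer H3K4me1 lists. With no scaling ARID1B was still called and ARID1A was not. BCL7A was not called without H3K4me1 replicate 2 (0.0628). SMARCA4 and SMARCC1 had too few distal peaks to be tested.

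Among the enzymes that write these marks, 10 of 21 were tested, with a median of 0.02. For this list and those below, 28.3% of all tested genes had more H3K27ac and 21.7% more H3K4me1. SETD1A and SETD1B, which methylate H3K4, and the demethylase gene KDM1A had more H3K27ac, and the acetyltransferase genes CREBBP, KAT2B and KAT6B more H3K4me1. SETD1B had 16 and 15 H3K27ac peaks against 5 and 3 H3K4me1 peaks (2.79 ± 0.24, limma adjusted p = 0.0017), and CREBBP had 0 and 0 against 4 and 5 (adjusted p = 0.0018). Of 11 tested ribosomal protein genes of 36, 5 had more H3K27ac and 3 more H3K4me1, with a median of 0.50. Lists for other cell types had few tested genes: 8 acinar and endocrine products of 20, with 2 calls each way, 7 neuronal genes of 27, with DLGAP1 and ROBO1 on opposite sides, 4 fibroblast and endothelial genes of 18, with ACTA2 on the H3K27ac side, and 1 haematopoietic gene of 20, CSF1R, not called. INS, the insulin gene, had 0 and 0 H3K27ac peaks against 6 and 4 H3K4me1 peaks in a window shared with 8 coding gene ends. ROBO1 was not called when any 1 of the 4 libraries was left out (adjusted p = 0.0543 to 0.0745), nor ACTA2 without H3K4me1 replicate 1 (0.0786). RSF1, a remodelling factor gene, had more H3K4me1 (−1.07 ± 0.21, limma adjusted p = 0.0153), but was not called without H3K4me1 replicate 1 or 2. ABCC1, the drug transporter, was called on the H3K27ac side (0.95 ± 0.11, limma adjusted p = 0.0033) only relative to the longer H3K4me1 lists. It had 27 and 27 H3K27ac peaks against 27 and 26 H3K4me1 peaks. With no scaling it was not called (0.03, adjusted p = 0.613), nor at −log10 q of at least 1.3 (0.34, adjusted p = 0.347). LGR4, IQGAP1 and KLF12 were not called, at −0.33 ± 0.28, −0.25 ± 0.22 and 0.68 ± 0.40, and KLF12 passed without H3K27ac replicate 1 (0.0381).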

How the data were processed

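Peaks had been called by the authors in each library separately. Per the submitters' processing notes, the tools were MACS2 2.2.7.1, Picard 2.23.9, Bowtie2 2.4.1 and SAMtools 1.9 and the build was GRCh38, without settings. The deposited fold enrichment per peak is a ratio the authors computed, over a background not given in the sources used here. In alternatives, the deposited −log10 q served as a threshold and the deposited −log10 p ranked peaks for lists of equal length, and the deposited peak score was not used. The lowest −log10 p was 2.01 in each of the 4 libraries, so lists were not filtered on q. The IgG library was not used here.

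From these lists, peaks of a mark that overlapped or touched were merged, and the summit of a region was that of its highest peak over both libraries. Overlap of a distal region was counted with all reproducible regions of the other mark. Gene ends were those RefSeq gives for GRCh38.p14 and sequences from the RefSeq start windows of that build, which lack chromosome 8. Distances toward coding starts used 22012 starts with strand and 11296 summits. Chance tests over regions or genes were not run.

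Peaks per gene were fitted with limma 3.58.1 (lmFit, eBayes with trend) in R 4.3.3, with Benjamini-Hochberg adjustment over all 5540 tested genes. The fit and the interval functions were tested on simulated data. Deviations of same-numbered libraries correlated at −0.02, so the replicate numbers were not taken to pair libraries. Python 3.11.15, NumPy 2.4.6, pandas 2.3.3 and matplotlib 3.10.9 were used.

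Genes named are the 10 largest region differences each way among called genes, skipping windows that overlap one already taken, the 2 largest log2 differences of each list, 12 genes looked up, and the 6 longest windows of each rich and poor kind. Other list members are named where they were called, some genes are not reported here, and other genes are marked as chosen after their values were seen. The regions, lists and tests were chosen with earlier results of these data known. Alternatives were other peak thresholds, region definitions, distal distances, gene windows, scalings, filters and measures, equal list lengths, and each library left out in turn.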

Additional observations from a re-analysis of the deposited data

How the results depend on the processing

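Limits come first from weak H3K4me1 calls: no depth is known, and stricter thresholds leave few H3K4me1 regions, 3559 at −log10 q of at least 1.3 and 46 at 5, against 5458 and 492 for H3K27ac. With peaks of −log10 q of at least 5, 1.42% of H3K27ac and 15.2% of H3K4me1 regions met the other mark, the median summit distance was 20303900 bp, H3K4me1 covered 1.22% of H3K27ac summits with a difference beside them of −0.711 percentage points, and 0% had both flanks. There were then 0 genes with more H3K27ac, 3 with more H3K4me1 and 4 at an unadjusted p under 0.05 of 33 tested with limma, and 11 and 0 genes rich in H3K27ac or H3K4me1. At 1.3 the values were 14.8%, 22.5%, 68939 bp, 13.6%, −7.72 and 0.458%, with 474 and 290 called genes and 32 rich in H3K4me1.

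Peaks of either replicate gave 46.6%, 23.3%, 688 bp, 41.3%, −25.1 and 6.05%, and 1281 genes rich in H3K4me1. The gene fit counts each library's own peaks, so that setting gives it no other value. Joining peaks within 1 kb gave 49.2%, 24.1%, 42.6% at the summit and 1.22% with both flanks, 999 and 558 called genes, and 43 and 427 rich in H3K27ac or H3K4me1. A distal distance of 1 kb gave 33.8%, 3019 bp, 30.2%, −18.0 and 3.08%, with 316 genes rich in H3K27ac, and 10 kb gave 1563 bp and −21.7, with 920 and 745 called genes and 103 and 407 rich ones. Lists of equal length gave 22.5% of H3K4me1 regions with H3K27ac, 2428 bp and 3.04% with both flanks. Without H3K4me3 regions the values were 44.8%, 958 bp, 40.4%, −24.4 and 4.02%, with 131 genes rich in H3K27ac. The summit of replicate 2 gave 3.99% with both flanks.

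Leaving out each library in turn gave 34.5% to 45.2% of H3K27ac and 17.1% to 26.7% of H3K4me1 regions with the other mark, 875 to 2184.5 bp, 30.7% to 38.7% at the summit, −24.6 to −17.4 and 3.88% to 5.44% with both flanks. The gene counts ran from 1342 to 1569 and from 497 to 1903 called, and from 97 to 376 and from 499 to 1474 rich, and the lone library was assumed to vary like those of the other mark. The lower coverage beside than at H3K27ac summits held in all 13 other settings.

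Gene spans without flanks gave 475 and 578 called and 70 and 318 rich genes, and 100 kb flanks gave 2555 and 1971 called and 316 and 1115 rich. No scaling gave 439 genes with more H3K27ac, a filter of 1 peak 2709 and 2001, and one of 16 peaks 877 and 599. The split of calls turned to H3K4me1 with gene spans without flanks, at 45.1% for H3K27ac, and without H3K27ac replicate 1 or 2, at 42.9% and 43.8%. At least 8 and at most 2 regions gave 90 and 277 rich genes. The replicate number as a block gave 1697 and 1489 calls, and of the named genes it ended the call of ROBO1 (adjusted p = 0.0617) and called NFE2L2 (0.0408), TGFB2 (0.00559), EGFR (0.025) and PDE4D (0.03), which the numbers, not shown to pair libraries, do not settle.

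Of the 71 named genes, of which 4 to 71 could be tested under a given setting, none that was called turned its direction where it was tested. CCN1, outside them, did with no scaling. Among those not called, CSF1R (0.10) was −1.79 at −log10 q of at least 1.3, −0.030 at 1 kb, −0.042 with equal lists, −0.26 to 0.45 with a library left out, −0.29 without flanks, −0.0049 with 100 kb flanks, −0.83 with no scaling and −0.72 by covered kb. VWF (0.32) was −0.048 to 0.69 with a library left out, −0.29 without flanks and −0.60 with no scaling. EGFR was −0.44, −0.079 and −0.58 at −log10 q of at least 5, of at least 1.3 and with no scaling, KLF12 was −0.23 without H3K4me3 regions and −0.24 with no scaling, NFE2L2 −0.42 with no scaling, TGFB2 0.21 with joined peaks, LGR4 0.76 at −log10 q of at least 1.3 and −0.67 to 0.013 with a library left out, and IQGAP1 0.0032 without H3K4me3 regions and 0.073 by covered kb. No scaling ended 22 calls of named genes. In these cases the cause was not tested.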
